A study of Mus musculus with 24 samples.

Results

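Blood and endothelial lineage genes were examined as a group of 10 genes: the receptors Kdr, Flt1 and Tek, the transcription factors Etv2, Tal1, Lmo2, Runx1 and Fli1, and the surface proteins Pecam1 and Cd34. They were chosen by name, for their place in this lineage, and were located among the 21887 protein-coding genes of the mouse RefSeq gene table. For each gene, the presence, position and covered length of histone H3 lysine 9 acetylation (H3K9ac) peaks were read within 1000 bp of either annotated end, and then along the whole gene and 20 kb beyond it.

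The peaks came from chromatin immunoprecipitation and sequencing of embryoid bodies, the aggregates formed by differentiating mouse embryonic stem cells, at day 5. The null cells were Gcn5-/- clones 4_C2 and 6_C4, which lack the histone acetyltransferase Gcn5, and they were set against Gcn5 fx/fx clones 4_1 and 6_1, which are homozygous for a floxed Gcn5 allele. All were labelled C57BL/6, and each clone gave 2 replicate libraries, so each genotype had 4 libraries. Clones 6_C4 and 6_1 form isolate pair 6, and clones 4_C2 and 4_1 form isolate pair 4. Each pair holds a single clone of each genotype, so a difference between genotypes within a pair cannot be told apart from a difference between its 2 clones. The study asked how the genomic distribution of H3K9ac changes when Gcn5 is lost early in differentiation. The replicates are described as independent experiments, but whether they were separate cultures is not said, so p-values measure only the spread between these libraries.

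Blood and endothelial cells arise in the embryo from a common mesodermal progenitor that carries the VEGF receptor Kdr, and the same step takes place in embryoid bodies. The ETS factor Etv2 acts briefly at its start, and Tal1, with its adaptor partner Lmo2, then commits cells to the blood and endothelial fate. Runx1 is needed for blood cells to emerge from haemogenic endothelium, while Tek, Pecam1 and Cd34 are carried by endothelium as vessels form. H3K9ac is found mainly at the promoters of active genes and at some distal regulatory elements.

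The 8 deposited lists held between 12041 and 20809 peaks that covered between 21.8 and 44.3 Mb. The pair 6 lists held 18932 and 17849 peaks in null clone 6_C4 and 20809 and 18477 in fx/fx clone 6_1. The pair 4 lists were shorter, with 14947 and 12041 peaks in null clone 4_C2 and 15315 and 13260 in fx/fx clone 4_1. Read depth was unknown and the lists gave no peak height, so a length of 0 bp below means that no peak was called. An embryoid body is a mixture of cell types, and fewer cells of a type cannot be told apart from less of the mark per cell. Of 6 pluripotency genes listed to mark other cells, 2 had a peak at an end in all 8 lists and 3 in some. The same counts were 1 and 4 of 6 epiblast and early mesoderm genes, 1 and 4 of 6 neural genes, 0 and 3 of 6 cardiac genes, and 0 and 3 of 6 endoderm genes.

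Acetylation at the ends of the blood and endothelial genes was uneven. Tal1 alone had a peak at an end in all 8 lists, Flt1 had one in 7 lists and Kdr in 5. Tek, Fli1 and Cd34 each had one in a single list, and Etv2, Lmo2, Runx1 and Pecam1 had none in any list. Among all protein-coding genes, 45.3% had a peak at an end in every list, 17% in some lists and 37.8% in none. Counted per list, the genes among these 10 whose ends had a peak numbered 3 and 1 in the 2 replicates of null clone 4_C2, and 3 and 3 in those of null clone 6_C4. They numbered 3 and 2 in fx/fx clone 4_1, and 5 and 3 in fx/fx clone 6_1. The longest list, 6_1 replicate 1, therefore had the most of them, and the shortest, 4_C2 replicate 2, had only Tal1. Over all protein-coding genes, the share with an end peak was also highest in 6_1 replicate 1 (59%) and lowest in 4_C2 replicate 2 (47.5%).

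Windows at gene ends missed much of the signal at these loci. Counting peaks anywhere inside a gene as well, Tal1, Lmo2 and Runx1 had a peak in all 8 lists and every gene but Etv2 had one in at least 1 list. Per list, between 3 (4_C2 replicate 2) and 9 (6_1 replicate 1) of the 10 genes had such a peak. Over all protein-coding genes the share in these 2 lists was 51.7% and 63.6%. Among 8265 protein-coding genes that had no end peak in any list, 443 (5.36%) had a peak inside the gene in all 8 lists, and Lmo2 and Runx1 were among them. Merging peaks of all lists that overlapped gave 25 regions within the 10 genes or 20 kb beyond them. Of these, 6 lay over an end of, or inside, another protein-coding gene, and the other 19 are described here. They comprise 6 at a gene end, 7 inside a gene and 6 outside it. A peak was present in all 8 lists at 4 of the 19, against 39.1% of all 26034 merged regions, and in a single list at 4, against 25.7%.

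**Figure D1:**
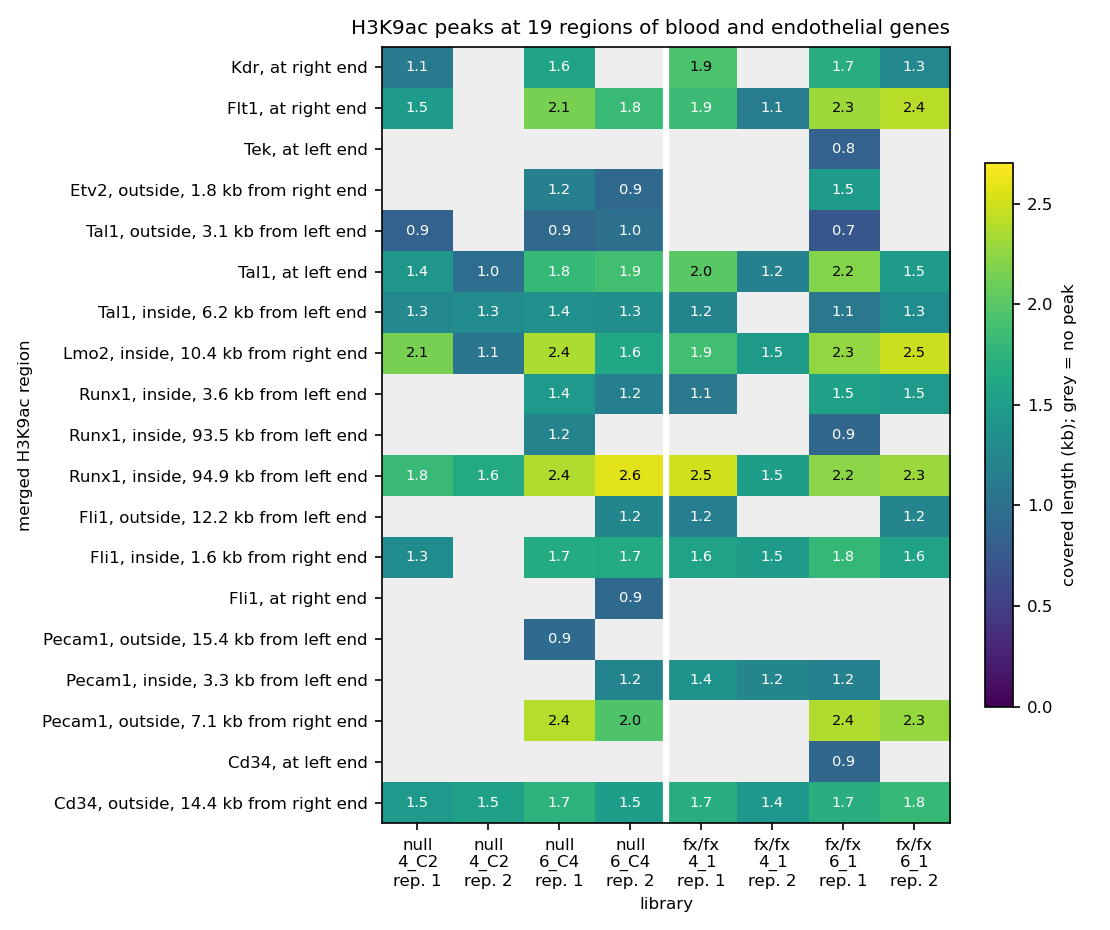
Base pairs covered by H3K9ac peaks (number in each cell, in kb) at 19 regions of the blood and endothelial genes, one row per region and one column per library, with the 4 null libraries left of the 4 fx/fx libraries. Of the 19 regions, 4 have a peak in every library, and the regions filled in few libraries are filled mostly in clones 6_C4 and 6_1.

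Among the receptors, Kdr and Flt1 carried a peak over the annotated start in most lists, and Tek in one. Kdr, the main signalling receptor for VEGF in endothelium, spans chr5:75932827-75979072 (mm10), with its RefSeq start at base 75978455 on the minus strand. Its peaks covered 1102 and 0 bp in null clone 4_C2, 1581 and 0 bp in null clone 6_C4, 1937 and 0 bp in fx/fx clone 4_1, and 1687 and 1263 bp in fx/fx clone 6_1. Each of the 3 empty values belonged to replicate 2 of its clone, both genotypes held peaks of similar width, and the groups overlapped. The 5 peaks formed one region, chr5:75977409-75979451, which lay over the Kdr start and also over the long non-coding RNA gene Gm32727. Kdr averaged 670.8 ± 799 bp in the null group and 1222 ± 861 bp in the fx/fx group (SD, n = 4 per group), a difference of -551 bp (exact two-sided permutation test, p = 0.314, adjusted p = 0.934 over 13622 genes).

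Flt1, a VEGF receptor that also acts as a trap for the ligand, spans chr5:147561604-147726438, with its start at base 147726011 on the minus strand. Its peaks covered 1497 and 0 bp in null clone 4_C2, 2147 and 1826 bp in null clone 6_C4, 1854 and 1132 bp in fx/fx clone 4_1, and 2302 and 2410 bp in fx/fx clone 6_1. One null library lacked a peak, and the other null values fell within the range of the fx/fx values. Within pair 6 both null values were below both fx/fx values, and within pair 4 the genotypes overlapped. Flt1 averaged 1368 ± 950 bp in the null group and 1924 ± 581 bp in the fx/fx group (SD, n = 4 per group), which differed by -557 bp (exact two-sided permutation test without regard to pair, p = 0.4, adjusted p = 0.934). Leaving out 4_C2 replicate 2, the shortest list, brought this difference to -101.2 bp. The mean was 2171 ± 254 bp in pair 6 and 1121 ± 803 bp in pair 4 (SD, n = 4 per pair; exact permutation p = 0.0571, adjusted p = 0.145). Together these peaks spanned positions -927 to 1604 relative to the Flt1 start.

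Tek, the angiopoietin receptor also called Tie2, spans chr4:94739086-94874976. Its only peak, of 848 bp in fx/fx 6_1 replicate 1, spanned positions -296 to 551 relative to the start at base 94739289. The other 7 lists, among them all 4 null lists, had no peak within the gene or 20 kb beyond it.

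The transcription factors differed from one another in where their peaks lay. Etv2 (chr7:30633616-30636509), the factor at the top of the programme, had no peak within the gene or at its ends. The nearest region that belonged to no other protein-coding gene, chr7:30638274-30639963, lay 1765 bp beyond its right end, spanning positions -4111 to -2422 relative to the start. It covered 0 and 0 bp in null clone 4_C2, 1181 and 927 bp in null clone 6_C4, 0 and 0 bp in fx/fx clone 4_1, and 1478 and 0 bp in fx/fx clone 6_1. All 3 peaks were thus in pair 6, in both genotypes. The remaining peaks within 20 kb of Etv2 lay at or in its coding neighbours Cox6b1, Rbm42 and Haus5.

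Tal1 (chr4:115056426-115071755), a basic helix-loop-helix factor, had a peak at an end in the most lists. The peak at its left end covered 1424 and 979 bp in null clone 4_C2, 1811 and 1886 bp in null clone 6_C4, 2013 and 1188 bp in fx/fx clone 4_1, and 2201 and 1492 bp in fx/fx clone 6_1. The genotypes overlapped, with the lowest value in a null library and the highest in an fx/fx library. The means were 1525 ± 417 bp in the null group and 1724 ± 466 bp in the fx/fx group (SD, n = 4 per group). In a limma model of log2 peak length over the 9912 genes with a peak in all lists, centred on each library's median and with isolate pair as a covariate, Tal1 changed by -0.04 ± 0.19 (log2, SE; adjusted p = 0.976). The interaction term, the genotype change in pair 6 minus that in pair 4, was 0.40 (adjusted p = 0.916), and it passed at 1 of 9912 genes (0.0101%). The region, chr4:115056045-115058245, also lay over the long non-coding RNA gene Gm33786.

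A pair of further Tal1 regions had more null than fx/fx peaks. The first, chr4:115062583-115064038, lies inside the gene, 6157 bp from the left end. It covered 1267 and 1298 bp in null clone 4_C2, 1368 and 1332 bp in null clone 6_C4, 1223 and 0 bp in fx/fx clone 4_1, and 1080 and 1317 bp in fx/fx clone 6_1. The null values were closely grouped and a single fx/fx list had no peak, so the means were 1316 ± 43.5 bp in the null group and 905 ± 611 bp in the fx/fx group (SD, n = 4 per group; exact two-sided permutation p = 0.0857, adjusted p = 1). Without that fx/fx list, 4_1 replicate 2, the difference was 109.6 bp. The second, chr4:115052160-115053307, begins 3119 bp upstream of the start and lies over the long non-coding RNA gene Gm52674. It covered 853 and 0 bp in null clone 4_C2, 938 and 993 bp in null clone 6_C4, 0 and 0 bp in fx/fx clone 4_1, and 733 and 0 bp in fx/fx clone 6_1. It was present in 3 null lists against 1 fx/fx list (covered length, exact permutation p = 0.143, adjusted p = 1).

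Lmo2 (chr2:103957903-103981878), the LIM-domain adaptor that joins Tal1 to GATA factors, had its peak deep within the annotated gene. The region, chr2:103968987-103971475, lay 11084 bp from the left end and 10403 bp from the right end, over the long non-coding RNA gene Gm38515. It covered 2142 and 1055 bp in null clone 4_C2, 2371 and 1622 bp in null clone 6_C4, 1887 and 1469 bp in fx/fx clone 4_1, and 2260 and 2489 bp in fx/fx clone 6_1. The 2 shortest values came from replicate 2 of the pair 4 clones, one of each genotype, and the genotypes overlapped. Means were 1798 ± 586 bp in the null group and 2026 ± 447 bp in the fx/fx group (SD, n = 4 per group). The limma change over the 10171 merged regions with a peak in all lists was -0.08 ± 0.17 (log2, SE; adjusted p = 0.939).

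Runx1 (chr16:92601466-92826074), the runt-domain factor of blood emergence, has an outer and an inner start, known as its distal and proximal promoters. RefSeq places them at bases 92826074 and 92697329 on the minus strand, 128745 bp apart. No list had a peak over the outer start, and all 8 had one over the inner start. The inner region, chr16:92696346-92699064, covered 1829 and 1646 bp in null clone 4_C2, 2381 and 2579 bp in null clone 6_C4, 2508 and 1500 bp in fx/fx clone 4_1, and 2227 and 2299 bp in fx/fx clone 6_1. In 6_1 replicate 1 the signal was called as 2 peaks, of 1378 and 849 bp. The ranges of the genotypes overlapped almost wholly, with means of 2109 ± 443 bp in the null group and 2134 ± 439 bp in the fx/fx group (SD, n = 4 per group). The limma change was 0.12 ± 0.14 (log2, SE; adjusted p = 0.858), and it was -0.01 without centring on the library median.

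Runx1 had a further region 3588 bp from its left end, chr16:92605054-92606601. It covered 0 and 0 bp in null clone 4_C2, 1450 and 1164 bp in null clone 6_C4, 1085 and 0 bp in fx/fx clone 4_1, and 1540 and 1466 bp in fx/fx clone 6_1. All 4 pair 6 lists had it and 1 pair 4 list did, and the lowest pair 6 value was above that one. It averaged 1405 ± 165 bp in pair 6 and 271.2 ± 542 bp in pair 4 (SD, n = 4 per pair; exact permutation p = 0.0286, the lowest value possible with 4 libraries against 4, adjusted p = 0.15).

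Fli1 (chr9:32422204-32543432), an ETS factor of endothelium and megakaryocytes, had its main region 1624 bp inside its right end, at chr9:32539887-32541808. This lies just beyond the end window. It covered 1314 and 0 bp in null clone 4_C2, 1658 and 1652 bp in null clone 6_C4, 1551 and 1491 bp in fx/fx clone 4_1, and 1801 and 1551 bp in fx/fx clone 6_1. As at Flt1, the one empty list was 4_C2 replicate 2. Fli1 averaged 1156 ± 787 bp there in the null group and 1598 ± 138 bp in the fx/fx group (SD, n = 4 per group), a difference of -442.5 bp (exact permutation p = 0.343, adjusted p = 1), and -57.17 bp without that library. A peak of 927 bp nearer the right end was called only in null 6_C4 replicate 2. A region 12213 bp beyond the left end, over the long non-coding RNA gene Gm31755, had peaks of 1235 bp in 6_C4 replicate 2, 1159 bp in 4_1 replicate 1 and 1229 bp in 6_1 replicate 2.

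**Figure D2:**
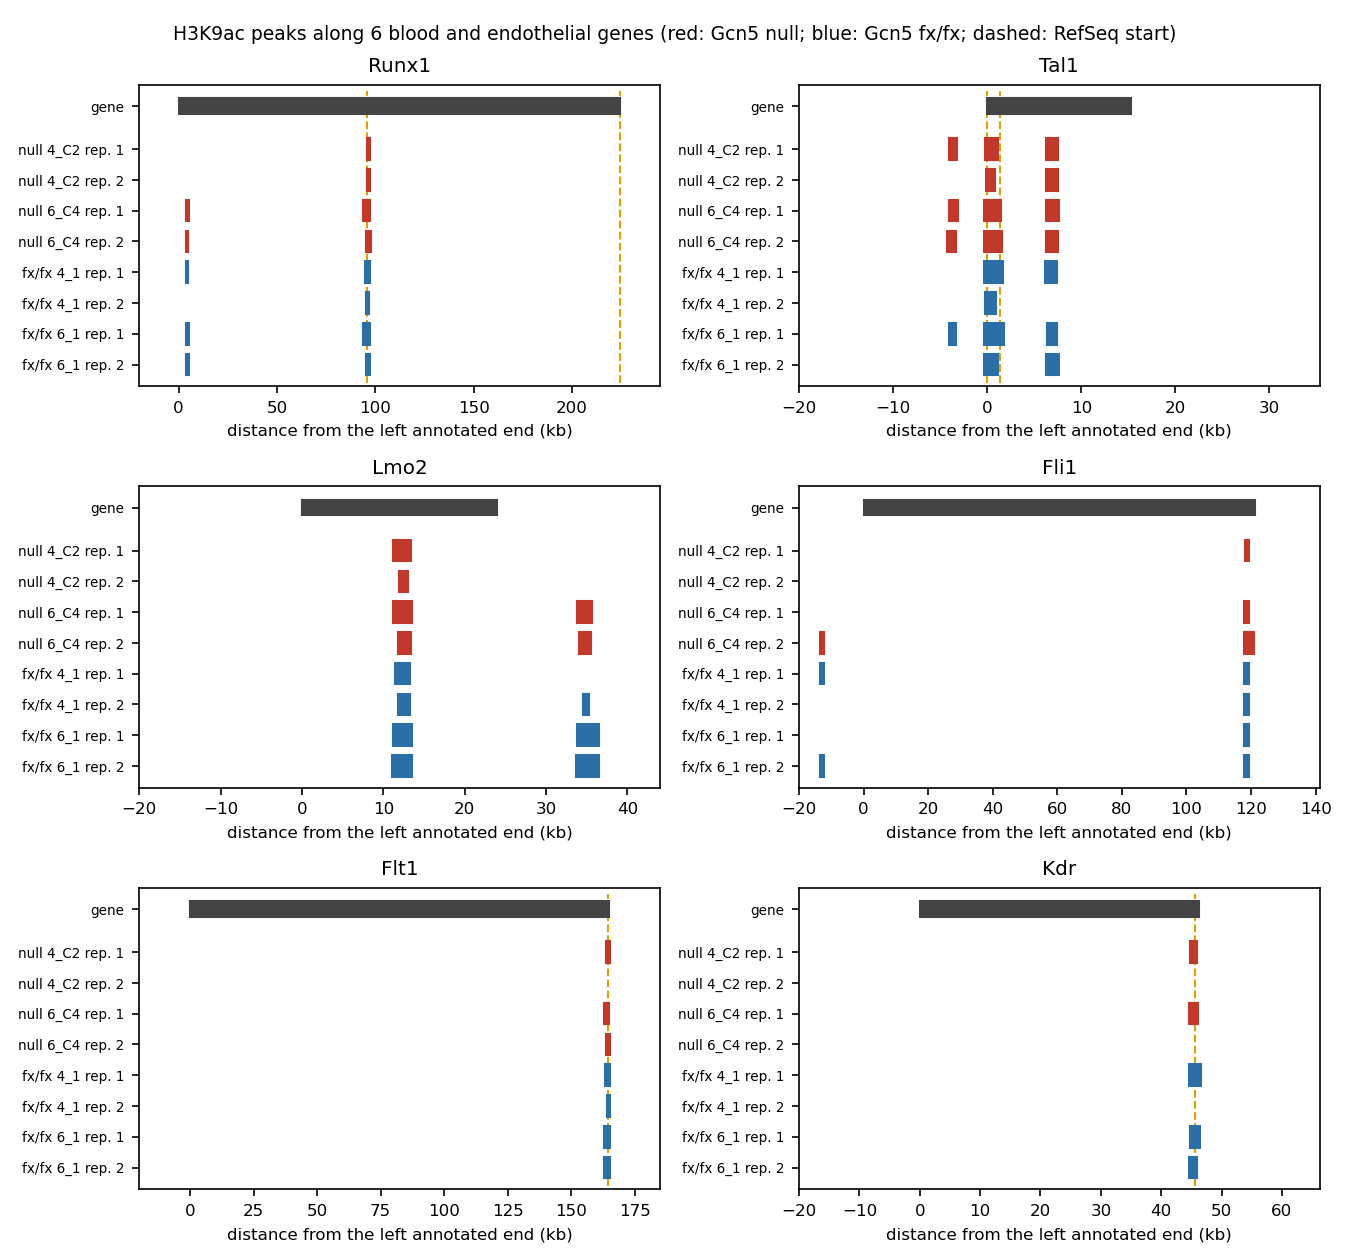
H3K9ac peaks at Runx1, Tal1, Lmo2, Fli1, Flt1 and Kdr, one line per library with null libraries (red) above fx/fx libraries (blue), drawn to scale as distance in kb from the left end of each gene, with the gene span as a dark bar and RefSeq starts as dashed lines. The peaks of Kdr and Flt1 and the Tal1 peaks shared by all libraries sit at a gene end, those of Lmo2 and the inner Runx1 start inside the gene, and the peaks right of Lmo2 lie at the end of its coding neighbour 4931422A03Rik.

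Of the surface proteins, Cd34 (chr1:194938821-194961292), a sialomucin of blood progenitors and endothelium, had 1 peak over its start, of 887 bp in fx/fx 6_1 replicate 1. All 8 lists shared a region 14439 bp beyond its right end, chr1:194975731-194977607, over the long non-coding RNA gene Gm16897. Whether that region acts on Cd34 was not tested. That region covered 1466 and 1545 bp in null clone 4_C2, 1742 and 1509 bp in null clone 6_C4, 1682 and 1436 bp in fx/fx clone 4_1, and 1691 and 1811 bp in fx/fx clone 6_1. All 8 values lay close together. The means were 1566 ± 122 bp in the null group and 1655 ± 157 bp in the fx/fx group (SD, n = 4 per group). The limma change was 0.06 ± 0.10 (log2, SE; adjusted p = 0.913), and -0.08 without centring.

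Pecam1 (chr11:106654213-106715281), an adhesion molecule of endothelial junctions, had no peak at either end. A region 3255 bp inside its left end, chr11:106657468-106658950, covered 0 and 0 bp in null clone 4_C2, 0 and 1219 bp in null clone 6_C4, 1380 and 1233 bp in fx/fx clone 4_1, and 1182 and 0 bp in fx/fx clone 6_1. It was present in 1 null list against 3 fx/fx lists (covered length, exact permutation p = 0.257, adjusted p = 1). A broader region 7064 bp beyond the right end, chr11:106722345-106724779, covered 0 and 0 bp in null clone 4_C2, 2401 and 1954 bp in null clone 6_C4, 0 and 0 bp in fx/fx clone 4_1, and 2383 and 2270 bp in fx/fx clone 6_1. It followed the isolate pair and not the genotype: 2252 ± 207 bp in pair 6 (SD, n = 4), and no peak in pair 4. The exact permutation test of its length between pairs gave p = 0.0286, and adjusted p = 0.15 over 26034 regions. Of these regions, 741 (2.85%) were present in all 4 pair 6 and no pair 4 lists.

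Across the 10 genes, no value passed a test of null against fx/fx. By limma, 0 of 9912 genes were narrower and 0 were wider in null libraries (0% each). Before adjustment, 338 were narrower and 280 wider with p under 0.05. Tal1, the only one of the 10 genes in that test, was not among either. Over the 10171 regions limma likewise called 0 narrower and 0 wider (0% each, and 327 and 378 with an unadjusted p below 0.05). The regions at Tal1, Lmo2 and Runx1 and the one beyond Cd34 were tested there. The quartiles of the change over all 10171 regions were -0.08 and 0.10 on the log2 scale, and the values of these 4 ran between -0.08 and 0.12. Centring removed a difference of -0.14 log2 between the library medians of null and fx/fx lists over the 10171 regions (exact permutation p = 0.343). The exact permutation test of covered length at gene ends called 0 of 13622 genes (0%) after adjustment. Its smallest possible p was 0.0286, so a gene could pass after adjustment only if most genes reached that value. That 0 therefore cannot tell change from no change at a single gene.

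**Figure D3:**
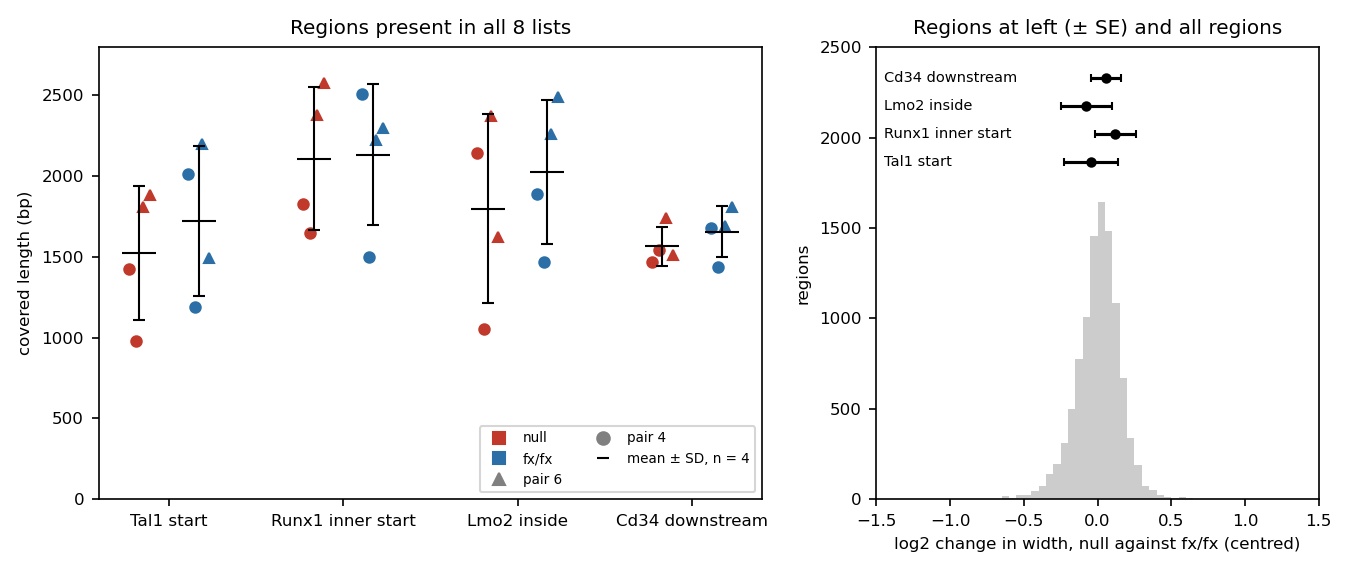
Left, covered length (bp) in each library at the 4 regions present in all 8 lists, null libraries (red) left of fx/fx libraries (blue), triangles for pair 6, circles for pair 4, and bars for mean ± SD (n = 4). Right, the log2 change of these regions (points, ± SE) above a histogram of all 10171 tested regions. The genotypes overlap at Tal1, Lmo2 and Runx1 and at the region beyond Cd34, and the 4 changes lie between -0.08 and 0.12.

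Where presence differed between genotypes, it more often favoured the fx/fx lists, at these genes and over all genes. In each isolate pair the shortest list was a null one and the longest an fx/fx one. Of the 5 genes whose end peak was called in some but not all lists, 4 (Kdr, Flt1, Tek and Cd34) had fewer null than fx/fx lists and Fli1 had more. Over the 3710 protein-coding genes of this kind, 59.7% had fewer null lists and 19.1% had more. None of the 10 genes was marked at an end in all 4 lists of one genotype while unmarked in the other, a pattern seen in 10 of 13622 genes (0.0734%) for fx/fx lists and 0 (0%) for null lists. Of the 15 regions present in some but not all lists, 8 had fewer null lists and 5 had more, against 50.9% and 29.1% of 15863 such regions. At gene ends, none of the 10 genes had null lengths wholly below or wholly above the fx/fx lengths, against 2.09% and 0.044% of 13622 genes. None of the 19 regions had null values wholly below the fx/fx values, as 1.26% of all regions did, or wholly above them, as 0.0307% did. With every list cut to its 12041 widest peaks, 10 of the 19 regions still had a peak. Of these, 3 had fewer null lists, 3 had more and 4 had as many.

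Presence also differed between the isolate pairs. All 5 genes with an end peak in some lists had more pair 6 than pair 4 lists, as did 83% of the 3710 genes of this kind, and none had fewer, against 9.08%. Of the 15 regions present in some lists, 14 had more pair 6 lists and none had fewer, against 82.2% and 11.9% of all such regions. The 2 regions at which pair 6 lengths lay wholly above pair 4 lengths were the one beyond Pecam1 and the one near the left end of Runx1, and 18.8% of all regions showed this. The pair 6 lists were the longer ones, and of the 10 regions left in the lists of equal length, 3 had more pair 6 lists, 4 had fewer and 3 had as many. That step removes narrow peaks from the longer lists, down to a width of 1632 bp in the longest, while the shortest list keeps all of its peaks. It therefore lowers the counts of pair 6 lists, and of the longer fx/fx lists within a pair, by construction, and narrow regions such as the one near the left end of Runx1, which had no peak left, cannot be compared in this way. The broader region beyond Pecam1 kept its 4 pair 6 lists and 0 pair 4 lists. At gene ends none of the 10 genes had pair 6 lengths wholly above pair 4 lengths, against 27.9% of 13622 genes. By limma, 180 of 9912 genes (1.82%) were narrower and 266 (2.68%) wider in pair 6 (15 and 2687 without centring), and Tal1 was not called (0.15 ± 0.19, log2 and SE; adjusted p = 0.672). Over the regions 2.52% were narrower and 4.32% wider (256 and 439 regions, and 22 and 2724 without centring). By limma, none of those at Tal1, Lmo2 and Runx1 or beyond Cd34 was called (adjusted p between 0.456 and 0.681).

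CG content was counted at the annotated starts. RefSeq promoter sequences, of 250 bases before and 50 after a start (GRCm38.p6), were found for 7 of the genes and gave 9 promoters. Lmo2, Fli1 and Pecam1 were not matched. The 250 bases upstream of 4 starts are shown because the starts differ in how many lists had a peak over them: both Runx1 starts, the first Tal1 start and the Cd34 start. CG dinucleotides are in capitals.
Runx1 outer start (chr16:92826075-92826324, minus strand): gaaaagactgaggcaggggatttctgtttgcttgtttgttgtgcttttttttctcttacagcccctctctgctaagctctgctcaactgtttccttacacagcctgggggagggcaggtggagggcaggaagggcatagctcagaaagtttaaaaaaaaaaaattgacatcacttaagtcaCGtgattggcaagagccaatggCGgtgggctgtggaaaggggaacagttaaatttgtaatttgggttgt
Runx1 inner start (chr16:92697330-92697579, minus strand): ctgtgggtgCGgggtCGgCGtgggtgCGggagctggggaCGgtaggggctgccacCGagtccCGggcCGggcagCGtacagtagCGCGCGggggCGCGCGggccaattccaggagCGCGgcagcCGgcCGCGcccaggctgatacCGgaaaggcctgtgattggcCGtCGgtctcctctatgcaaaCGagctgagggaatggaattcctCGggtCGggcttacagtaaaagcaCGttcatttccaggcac
Tal1 first start (chr4:115056176-115056425, plus strand): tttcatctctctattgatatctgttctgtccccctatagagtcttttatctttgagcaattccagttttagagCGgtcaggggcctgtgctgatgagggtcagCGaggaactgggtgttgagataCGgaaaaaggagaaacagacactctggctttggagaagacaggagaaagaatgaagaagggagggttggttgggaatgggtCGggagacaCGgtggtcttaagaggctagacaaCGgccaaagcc
Cd34 start (chr1:194938571-194938820, plus strand): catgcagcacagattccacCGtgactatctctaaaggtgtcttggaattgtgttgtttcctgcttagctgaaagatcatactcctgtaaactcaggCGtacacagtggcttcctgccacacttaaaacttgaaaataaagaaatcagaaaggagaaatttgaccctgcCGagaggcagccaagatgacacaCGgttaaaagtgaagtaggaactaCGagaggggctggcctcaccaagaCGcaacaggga

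The upstream bases of the Runx1 inner start hold 27 CG dinucleotides, and those of the outer start hold 2. Over all 300 bases, the inner start has 35 (percentile 91.8 of 21263 promoters) and a peak in 8 lists, and the outer start has 2 (percentile 18.1) and a peak in none. Flt1 has 29 and a peak over the promoter in 7 lists, and Kdr has 19 and a peak in 5. Cd34 has 7 and Tek has 3, each with a peak in 1 list, and Etv2 has 5 with a peak in none. The first Tal1 start has 11 (percentile 47.2) with a peak in 8 lists, and the second, 1385 bp downstream, has 22 with a peak in 6. The number of lists did not follow CG content throughout: Tal1 and the pair of Tek and Etv2 stand out of that order.

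All promoters are given as a description. Those with a peak in all lists (9461) had a median of 24 CG dinucleotides, those with a peak in some lists (3450) had 15, and those with none (8352) had 3. Of promoters with 0 to 4 CG dinucleotides, the range of Tek and the outer Runx1 start, 1.52% had a peak in every list and 93% in none. Of those with 30 or more, the range of the inner Runx1 start, 88.1% had a peak in every list. Promoters with 10 to 19, as at Kdr and the first Tal1 start, had a peak in every list in 58.5% of cases.

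**Figure D4:**
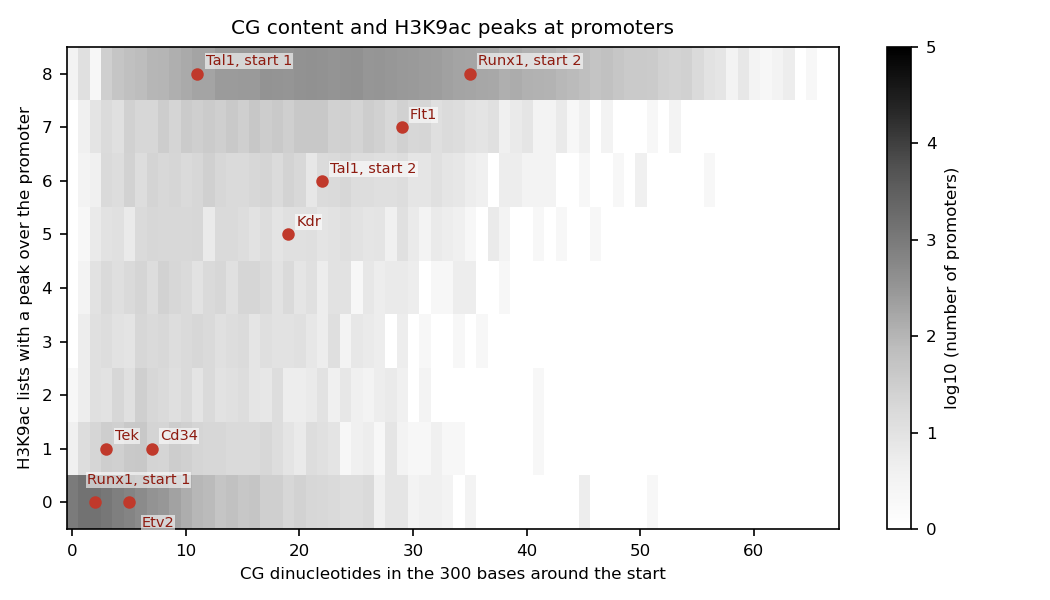
Number of H3K9ac lists with a peak over the promoter (y axis, 0 to 8) against CG dinucleotides in its 300 bases (x axis), with the 21263 promoters of protein-coding genes as grey shading (log10 number) and the 9 promoters of 7 blood and endothelial genes as labelled points. The inner and outer Runx1 starts stand at 35 and 2 CG dinucleotides, with a peak in 8 and 0 lists.

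Letters of the GATA, ETS and RUNX motifs and of the E-box were searched on both strands of the 300 bases. The group of 10 genes holds no GATA factor. The GATA motif AGATAA occurred in 9.65% of all promoters, the ETS motif CCGGAA in 18.7%, the RUNX motif TGTGGT in 15% and the E-box CANNTG in 69%. Kdr had 1 ETS and 1 E-box match, Tek 1 GATA and 2 E-box matches, and the first Tal1 start 1 GATA and 1 E-box match. The outer Runx1 start had 2 RUNX and 3 E-box matches, and the inner start had 1 ETS match. No match was found at Flt1, Etv2, Cd34 or the second Tal1 start.

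The wider lineage, as 62 further genes in 3 lists, was also uneven at gene ends: 17 had a peak in all 8 lists, 26 in some and 19 in none. Over all protein-coding genes these shares were 45.3%, 17% and 37.8%. Fewer null than fx/fx lists were seen at 18 of the 26 and more at 4, against 59.7% and 19.1% of all genes with a peak in some lists. Among the 25 transcription factors, 9 had a peak in all lists, 11 in some and 5 in none. The largest difference at gene ends was at Gata2, a zinc-finger factor of blood progenitors, with a peak in 1 null and 4 fx/fx lists. Its end peaks covered 334.8 ± 670 bp in the null group and 1404 ± 346 bp in the fx/fx group (SD, n = 4 per group). Counting peaks inside the gene as well, Gata2 had one in 7 lists, so the difference holds for the end windows only. Elk3 was present in 3 null and 4 fx/fx lists, Gfi1 in 0 and 1, and Lyl1, the close relative of Tal1, in 1 and 2. Ets1 and Ldb1, named here after their values were seen, were like Lmo2 and Runx1 in having no peak at an end but one inside the gene in all 8 lists.

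Of the 19 vascular ligands and receptors, 6 had a peak at an end in all lists, 9 in some and 4 in none. Nrp1, a VEGF co-receptor, had a peak in 2 null and 4 fx/fx lists, with 1152 ± 1350 bp in the null group and 2439 ± 1160 bp in the fx/fx group (SD, n = 4 per group). Apln, the apelin ligand, had one in 1 null and 3 fx/fx lists, whereas Acvrl1, a receptor for bone morphogenetic proteins in endothelium, had one in 3 null lists and 1 fx/fx list. Angpt2, a ligand of Tek, had a peak in 1 null list and no fx/fx list. Of the 18 surface and effector genes, 2 had a peak at an end in all lists, 6 in some and 10 in none. The 10 included Cdh5, the endothelial cadherin, and the embryonic globins Hba-x and Hbb-bh1, which had no peak inside the gene either. Others of the 10 did have one inside the gene: Egfl7 in 7 lists, Itga2b in 6 and Vwf in 4. These genes were named after their values were seen. Cldn5 had a peak in 2 null and 3 fx/fx lists, Esam in 3 and 2, and Nos3 in 3 and 4. The limma test of null against fx/fx included 17 of the 62 genes and called 0, with median changes of 0.11 for the transcription factors, -0.03 for the ligands and receptors and 0.04 for the surface genes on the log2 scale, against 0.01 for all 9912 genes.

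Genes whose covered length followed that of Kdr and Tal1 most closely were ranked by the Pearson correlation of log2 (length + 100 bp) over the 8 libraries, as a description. For Kdr they were Ift57 (r = 0.998), Cldn5 (0.994) and Mcidas (0.994), of 67 genes with r of at least 0.9. For Tal1 they were Galnt10 (0.974), Glt28d2 (0.957) and Tspan2 (0.952), of 70 such genes. The 8 points share their libraries, and list length varies among them. On this scale the 0 bp values of Kdr weigh heavily, so its r largely follows which lists had no peak. Ift57, Cldn5 and Mcidas each had a peak in 2 null and 3 fx/fx lists, as Kdr did.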

How the data were processed

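H3K9ac was mapped in 8 libraries of the 24 in the series; the 16 total H3 and input samples were not used here. The authors deposited a peak list per library, holding the chromosome, start and end of each peak and no other value. Bowtie 1.1.2, MACS 1.4.2 and mm10 are named per the submitters' processing notes, and libraries were sequenced on a HiSeq3000 per the labels' protocols. The sources used here do not give the threshold, control library or filters. Called peak length depends on depth, which is unknown, so no counting interval was possible. Coordinates are mm10, counted from 1. The gene table (RefSeq, GRCm38.p6) gives spans but no strand and no exons, so both gene ends were used.

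Covered length is the full length of the peaks that reach a window or region. Peaks overlapping by 1 bp were merged. Log2 length was tested with limma 3.58.1 (R 4.3.3), Benjamini-Hochberg adjusted with a threshold of 0.05, and checked on simulated data. Exact permutation tests, two-sided, used all 70 arrangements of the 8 libraries, and fewer with the replicate block or with 1 library left out. Other tools were Python 3.11.15, pandas 2.3.3 and SciPy 1.17.1. The 10 members and the 8 other gene lists were chosen with earlier results of these data known, so their counts are descriptions. The genes named were all members, up to 4 of each wider list by the largest difference in lists and then in length, and the 3 genes most correlated with Kdr and with Tal1; 1 gene the rule named is not reported here. Alternatives changed windows, centring, filters, the replicate block, list length and libraries.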

Additional observations from a re-analysis of the deposited data

Results flagged for a closer look

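Among 36 groups of 4 libraries with any spread, 13 had 1 library farther from the others than Dixon's critical value allows. For normally distributed values that limit flags about 1 in 20 groups, a rate that does not hold for lengths that are often 0. A group in which 1 library alone had a peak is always flagged. Of the 13, 12 are groups in which 1 library alone had a peak or alone lacked one, so their number does not measure unusual libraries. In fx/fx libraries, 6_1 replicate 1, the longest list, alone had the peak at the Tek end (848 bp), the Cd34 end (887 bp), the region beyond Etv2 (1478 bp), the region upstream of Tal1 (733 bp) and the region just downstream of the inner Runx1 start (895 bp). In null libraries, 6_C4 replicate 2 alone had the peak at the Fli1 end (927 bp), beyond the left end of Fli1 (1235 bp) and inside Pecam1 (1219 bp). The null library 6_C4 replicate 1 alone had the peak downstream of the inner Runx1 start (1204 bp) and one beyond the left end of Pecam1 (940 bp). In the region upstream of Tal1, 4_C2 replicate 2 was the null library without a peak (0 bp), and inside Pecam1 the fx/fx library without one was 6_1 replicate 2 (0 bp). The number of blood and endothelial genes marked at an end was 1 in 4_C2 replicate 2, the shortest list, and 3 in each other null library.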

How the results depend on the processing

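Over 27 results, 291 alternative values were computed, of which 259 stayed on their side of the threshold without a reversed sign and 24 reversed. The 259 include differences that fell to 0 with lists of equal length, where no peak was left. These were the genotype and pair differences upstream of Tal1 and beyond Etv2, and the genotype difference near the left end of Runx1. Alternatives for the merged regions, and the count of genes with a peak per list, were chosen after seeing the data. The count of genes changed in width in null against fx/fx libraries was 0. It became 2 without centring, 1 with windows of 500 bp and 1 with windows of 2000 bp, all narrower in null libraries. With genes in at least 4 lists and a pseudocount it became 11, with 10 narrower and 1 wider. When 1 library was left out, this count ran from 0 to 2. It was 2 without 4_C2 replicate 2 (both wider), 1 without 4_1 replicate 1 (narrower) and 2 without 4_1 replicate 2 (both narrower). The count between pairs (446) became 2702 without centring (15 narrower and 2687 wider), 79 with base pairs covered within the windows and 280 with lists of equal length, and ran from 120 to 214 with 1 library left out. The gene with a different genotype change in the pairs (1) became 0 with the replicate block, without centring, with windows of 2000 bp, with base pairs covered and with equal lists, and 185 with the pseudocount; leaving out 1 library gave 0 to 9. For merged regions, the genotype count (0) became 17 with the pseudocount (17 narrower and 0 wider) and ran from 0 to 1 with 1 library left out. The pair count for regions (695) became 2746 without centring (22 narrower and 2724 wider) and 1428 with the pseudocount. With 1 library left out it ran from 314 to 498. Genes with a peak in all lists of one genotype only (10) ran from 14 to 39 with 1 library left out, where fewer lists have to match. The mean number of the 10 genes marked at an end differed by -0.75 (null minus fx/fx); it was -1.25 with windows of 2000 bp and -0.25 with lists of equal length, and ran from -1.17 to -0.17 with 1 library left out. Among the 10 genes, values reversed for Tal1 between pairs at -0.0114 log2 with base pairs covered, Runx1 (inner region) at -0.0148 and Cd34 (far region) at -0.0783 between genotypes without centring, Cd34 between pairs at 0.14 without centring, and the inner Tal1 region between pairs at -324.5 bp with equal lists. With 1 library left out, the genotype change ran from -0.21 to 0.13 log2 at both the Tal1 end window and its merged region. It ran from -0.243 to 0.0618 at Lmo2 and from -0.0188 to 0.116 at the far region beyond Cd34. The pair change ran from -0.00132 to 0.26 at Runx1. The genotype difference ran from -511.9 to 332.1 bp beyond Pecam1 and from -60.5 to 527 bp beyond Etv2, and the pair difference inside Pecam1 from -270.8 to 189.2 bp. The Kdr difference ran from -958.2 to -312.6 bp. The causes of these moves were not tested. Over gene ends with a peak in all lists, deviations of same-numbered libraries correlated at 0.134 in pair 4 and 0.0489 in pair 6. Over regions with a peak in all lists they correlated at 0.109 and 0.0624. These values do not cover list length or the presence of peaks. In every clone the replicate 1 list was longer than the replicate 2 list. With the replicate block, the genotype count was 0. The exact permutation test then swapped genotypes only between same-numbered libraries of a pair. Its p was 0.25 for the Kdr length and 0.125 for the Flt1 length. The lowest value it can give is 0.125 where all matched libraries differ. At Kdr, replicate 2 of 4_C2 and of 4_1 both had 0 bp, so 0.25 was the lowest value possible there. At Flt1 every null library was below its matched fx/fx library, and at Kdr none was above it. Unknown depth and the absence of peak heights limit all values to the position and length of called peaks.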
